A study of Mus musculus with 15 samples.

Results

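Livers of male FVB/NJ mice that carried all 3 of S45Y-CTNNB1, G31A-NFE2L2 and hMET were compared with livers that carried any pair of them. The comparison used 12 of the 15 polyA RNA libraries of the series: 3 libraries of the triple model CTNNB1_NFE2L2_MET, set against 9 of the double models CTNNB1_MET, CTNNB1_NFE2L2 and NFE2L2_MET (3 each). The 3 wild-type (WT) FVB livers served to place both on a common scale. A gene was counted as particular to the triple liver when it differed from each of the 3 double models in the same direction, and 765 of 14098 tested genes (5.43%) did so. The labels do not give how the transgenes were delivered, the vector or promoter, the age, the time of harvest, or whether each library came from a separate animal. The p-values therefore measure the spread between these samples, which may be technical.

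β-catenin, encoded by CTNNB1, is the transcriptional effector of Wnt signalling, and S45 is a phosphorylation site used to mark it for destruction. In liver it drives the gene programme of hepatocytes around the central vein. NRF2, encoded by NFE2L2, switches on antioxidant and detoxification genes, and G31 lies in the stretch by which KEAP1 binds it for degradation. MET is the receptor tyrosine kinase for hepatocyte growth factor and signals largely through the RAS-ERK and PI3K pathways. In these data each transgene is present in the triple liver and in all but a single double model.

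Gene counts summed to between 14084343 and 20702618 in each library. The tissue was checked with 7 hepatocyte genes, Alb, Ttr, Apoa1, Serpina1c, Hnf4a, Cyp2e1 and Fga, whose sum was 67280 to 72270 counts per 1000000 counts (CPM) in triple livers, 29320 to 177700 in double livers and 80830 to 102000 in WT livers. Of 6 erythroid markers the globin genes Hba-a1, Hba-a2, Hbb-bs and Hbb-bt were at 0 in all 15 libraries, and the list summed to 9.57 to 13.3 CPM in triple livers, 14.1 to 36.1 in double livers and 18.4 to 27.4 in WT livers. Of 8 pancreas markers Cpb1 and Amy2a5 were at 0 in all libraries. That list summed to 86.8 to 122.2 CPM in triple livers, 60.9 to 119.0 in double livers and 57.4 to 77.5 in WT livers. Multimapping and ambiguous reads were not counted, and whether this took the reads of the globin genes or Amy2a5 was not tested. Their counts of 0 therefore do not show that blood or pancreas was absent. The share of unmapped reads moved with the groups, at 8.69 to 11.2% in triple livers, 15.8 to 19.1% in CTNNB1_MET, 9.71 to 11.8% in CTNNB1_NFE2L2, 12.7 to 14.2% in NFE2L2_MET and 19.8 to 25.9% in WT livers. Principal component 1, with 43.0% of the variance, put triple and CTNNB1_NFE2L2 livers at one end (46.1 to 66.1 and 46.9 to 61.0) and WT at the other (-76.1 to -68.4). On component 2, with 18.1% of the variance, triple replicate 1 stood apart from the other triple libraries (-46.0, against -1.85 and -4.14). In bulk liver, fewer cells of a type and less RNA per cell cannot be told apart.

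All pairwise comparisons below share the 3 triple libraries, so they are not independent of each other. By edgeR's quasi-likelihood test with Benjamini-Hochberg adjustment over all 14098 genes, 2597 genes (18.4%) were higher and 2168 (15.4%) lower in triple than in CTNNB1_MET livers at an adjusted p under 0.05. Against CTNNB1_NFE2L2 livers 1853 genes (13.1%) were higher and 1667 (11.8%) lower in the triple, and against NFE2L2_MET livers 2314 (16.4%) were higher and 2011 (14.3%) lower. Against the mean of the 3 double models 2670 genes (18.9%) were higher and 1878 (13.3%) lower. In either direction 33.8% of genes differed from CTNNB1_MET, 25% from CTNNB1_NFE2L2, 30.7% from NFE2L2_MET and 32.3% from the mean of the doubles. Of the 1022 genes called in all 3 pairwise comparisons, 463 (3.28% of all tested) were higher than every double model, 302 (2.14%) were lower than every double model and 257 had mixed directions. The 3 triple libraries lay above all 9 double libraries for 433 of the 463 genes, and below all 9 for 275 of the 302. Over all tested genes such a lack of overlap occurred for 997 (7.07%) with the triple higher and 645 (4.58%) with the triple lower. Most of the differences were moderate: 144 of the 463 and 31 of the 302 reached 2-fold against each double model. Protein-coding genes made up 445 of the higher and 284 of the lower genes. Counting did not use strand, so the genes named below that share exon bases with a gene on the opposite strand are uncertain: Ctnnb1, Vil1, Axin2, Glul, Ccna2, Fosl1, G6pdx, Golm1, Anxa4, Ciita, H2-DMa, Gbp2, Cd274, Itgb4, Krt5, Elfn2, Sardh, Adrb3, Cyp2f2, Serpina1c, Esrra, Duoxa1, Col4a3, Anxa2, Hars, Mars, Ndufb5 and Ndufs3. Reads of near-identical copies may also be split within the Cyp2d, Cyp2b, Sult2a, Gbp and H2 families.

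These counts rested in part on single libraries and on settings. Without triple replicate 1 the rule gave 226 higher and 132 lower genes, of which 220 and 127 were among those above, and without CTNNB1_NFE2L2 replicate 3 it gave 320 and 180. With triple replicate 2 left out the lower genes numbered 200. With the unmapped share as a covariate 56 higher and 30 lower genes met the rule, 55 and 28 of them among those above, and since that share follows the groups the 2 cannot be told apart. Scaling by total counts alone moved the median log2 difference of all genes between triple and the mean of the doubles to 0.23, against 0.01 with TMM. Under it the split was 5396 higher and 743 lower against the mean of the doubles, 4970 and 1038 against CTNNB1_MET, 6133 and 795 against NFE2L2_MET, and 1121 and 93 for the genes that passed in all comparisons. At the edge of the threshold, the largest of the 3 adjusted p-values was 0.0487 for Mki67 and 0.0492 for Snx2 just inside among the higher genes, and 0.0506 for Spi1 and Specc1l just outside.

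The rule places the triple past every double model, and the same triple libraries enter its comparison with WT, so the counts and medians of the triple against WT are a description. Of the 463 higher genes 442 were also higher in triple than in WT livers and 0 were lower; 0 of the other 21 passed the test. Of the 302 lower genes 281 were lower than WT and 0 higher. Over all genes 3739 (26.5%) were higher and 3300 (23.4%) lower in triple than in WT livers, 49.9% in all. The comparisons of the double models with WT do not use the triple libraries. In them, 234 of the 463 genes were higher in the mean of the doubles than in WT, 10 were lower and 219 did not pass the test, where 18.7% of all genes were higher. For the 302 lower genes, 126 were lower in the mean of the doubles than in WT, 13 were higher and 163 did not pass, where 17% of all genes were lower, and 35.8% differed in either direction. For 156 of the 463 and 132 of the 302, 0 of the 3 double models differed from WT past the threshold, and 144 and 123 of these differed from WT in the triple. The same counts were not made over all tested genes, so whether these shares are unusual was not tested. Of all genes, CTNNB1_NFE2L2 livers had 24.5% higher and 24.2% lower than WT (48.7% in all), NFE2L2_MET livers 13.5% and 9.89% (23.4%), and CTNNB1_MET livers 11% and 6.22% (17.2%). The median log2 difference from WT of the 463 was 1.64 in triple livers, against 0.66 in CTNNB1_NFE2L2, 0.42 in NFE2L2_MET and 0.38 in CTNNB1_MET livers. For the 302 it was -0.99 in triple livers, against -0.28 in CTNNB1_NFE2L2, -0.25 in NFE2L2_MET and -0.22 in CTNNB1_MET livers. The double model closest to the triple was CTNNB1_NFE2L2 for 211 of the 463 and 136 of the 302, and this too was not counted over all genes.

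**Figure D1:**
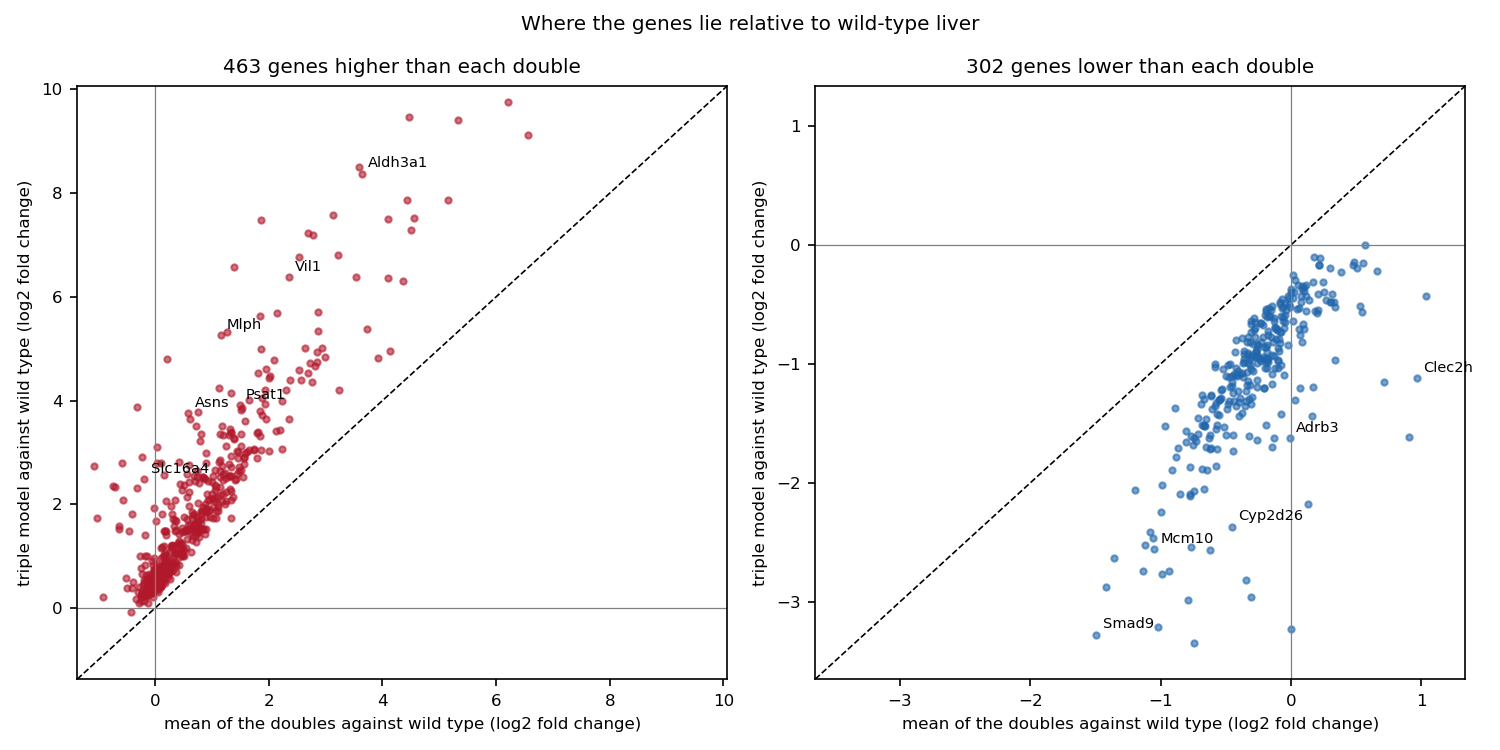
Log2 fold change of triple against WT livers (vertical axis) and of the mean of the 3 double models against WT (horizontal axis), 1 point per gene, for the 463 genes higher (left) and the 302 genes lower (right) than every double model, with a dashed line of equal change. The rule that chose the genes puts the points above the line at the left and below it at the right, with medians of 1.64 and -0.99 on the vertical axis.

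The mouse counterparts of the transgenes were read before anything else. Reads from transgene cDNA can align in part to the mouse genes, so these counts may mix both sources. Ctnnb1 (chr9:120929216-120960507, plus strand, GRCm38.p6) had 453, 409 and 454 CPM in triple livers, against 310, 352 and 388 (lowest, median and highest) in the 9 double libraries and 243, 259 and 295 CPM in WT livers. All 3 triple libraries lay above all 9 double libraries. The log2 difference was 0.37 ± 0.11 (SE) against CTNNB1_MET (adjusted p 0.0193) and 0.39 ± 0.11 against NFE2L2_MET (adjusted p 0.0154), but 0.26 ± 0.11 against CTNNB1_NFE2L2 (adjusted p 0.103), so Ctnnb1 did not meet the rule. Ulk4 overlaps its exons on the opposite strand. Its difference from the mean of the doubles, 0.34, was 0.32 without triple replicate 1 (adjusted p 0.0501). Nfe2l2 had 63.4, 65.1 and 59.2 CPM in triple livers, inside the 48.9 to 88.1 CPM of the double livers. Met had 86.6, 79.2 and 83.8 CPM in triple livers, inside the 64.9 to 91.7 CPM of the double livers, and 53.6, 96.0 and 78.1 CPM in WT livers.

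The genes with the widest gap to the nearest double model were not a single pathway. Vil1 encodes villin, an actin-bundling protein of epithelial brush borders (chr1:74409376-74435559, plus strand). It had 33.6, 18.1 and 9.54 CPM in triple livers, against 0.532, 1.21 and 2.02 CPM (lowest, median, highest) in double livers and 0.0719, 0.178 and 0.449 CPM in WT livers. The lowest triple library was above every other library, and the log2 difference was 3.97 ± 0.50 against CTNNB1_MET, 4.09 ± 0.50 against CTNNB1_NFE2L2 and 4.06 ± 0.51 against NFE2L2_MET, with a largest adjusted p of 0.000117. Aldh3a1, an aldehyde dehydrogenase inducible through the aryl hydrocarbon receptor, had 48.2, 24.8 and 20.1 CPM in triple livers, against 0.0522, 2.03 and 4.47 CPM in double livers and 0.0593 to 0.144 CPM in WT livers. Its log2 difference was 6.83 ± 0.56 against CTNNB1_MET, 3.86 ± 0.42 against CTNNB1_NFE2L2 and 3.50 ± 0.41 against NFE2L2_MET. Cyp1a1, the cytochrome P450 known as the standard target of the same receptor, had 120, 64.1 and 97.2 CPM in triple livers, against 2.51, 9.68 and 13.0 CPM in double livers and 1.30 to 2.37 CPM in WT livers. For both genes the triple libraries stood above all others without overlap.

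Mlph, which encodes melanophilin, an adaptor between organelles and myosin, had 40.5, 19.4 and 13.2 CPM in triple livers, against 0.365, 1.74 and 2.77 CPM in double livers and 0.415 to 0.791 CPM in WT livers. Mt3, a metallothionein best known from brain, had 42.1, 17.1 and 10.5 CPM in triple livers, against 1.996, 3.48 and 4.87 CPM in double livers. In WT livers Mt3 had 2.80, 0.0593 and 3.33 CPM, and all 3 triple libraries were above the rest. The remaining high genes of this kind were Cadps, a factor for vesicle release, Slc16a4, a monocarboxylate transporter family member, Slc25a24, a mitochondrial ATP-Mg/phosphate carrier, and Pgm5, a phosphoglucomutase relative. Their smallest log2 difference from any double model was 2.44 ± 0.60 for Cadps, 2.26 ± 0.44 for Slc16a4, 2.21 ± 0.38 for Slc25a24 and 2.09 ± 0.28 for Pgm5. For Pgm5 the triple libraries had 9.83, 11.2 and 8.32 CPM, and the double livers (1.26 to 2.81 CPM) overlapped WT (2.19 to 3.85 CPM). Leaving out any single library ended the call of 0 of these 9 genes.

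**Figure D2:**
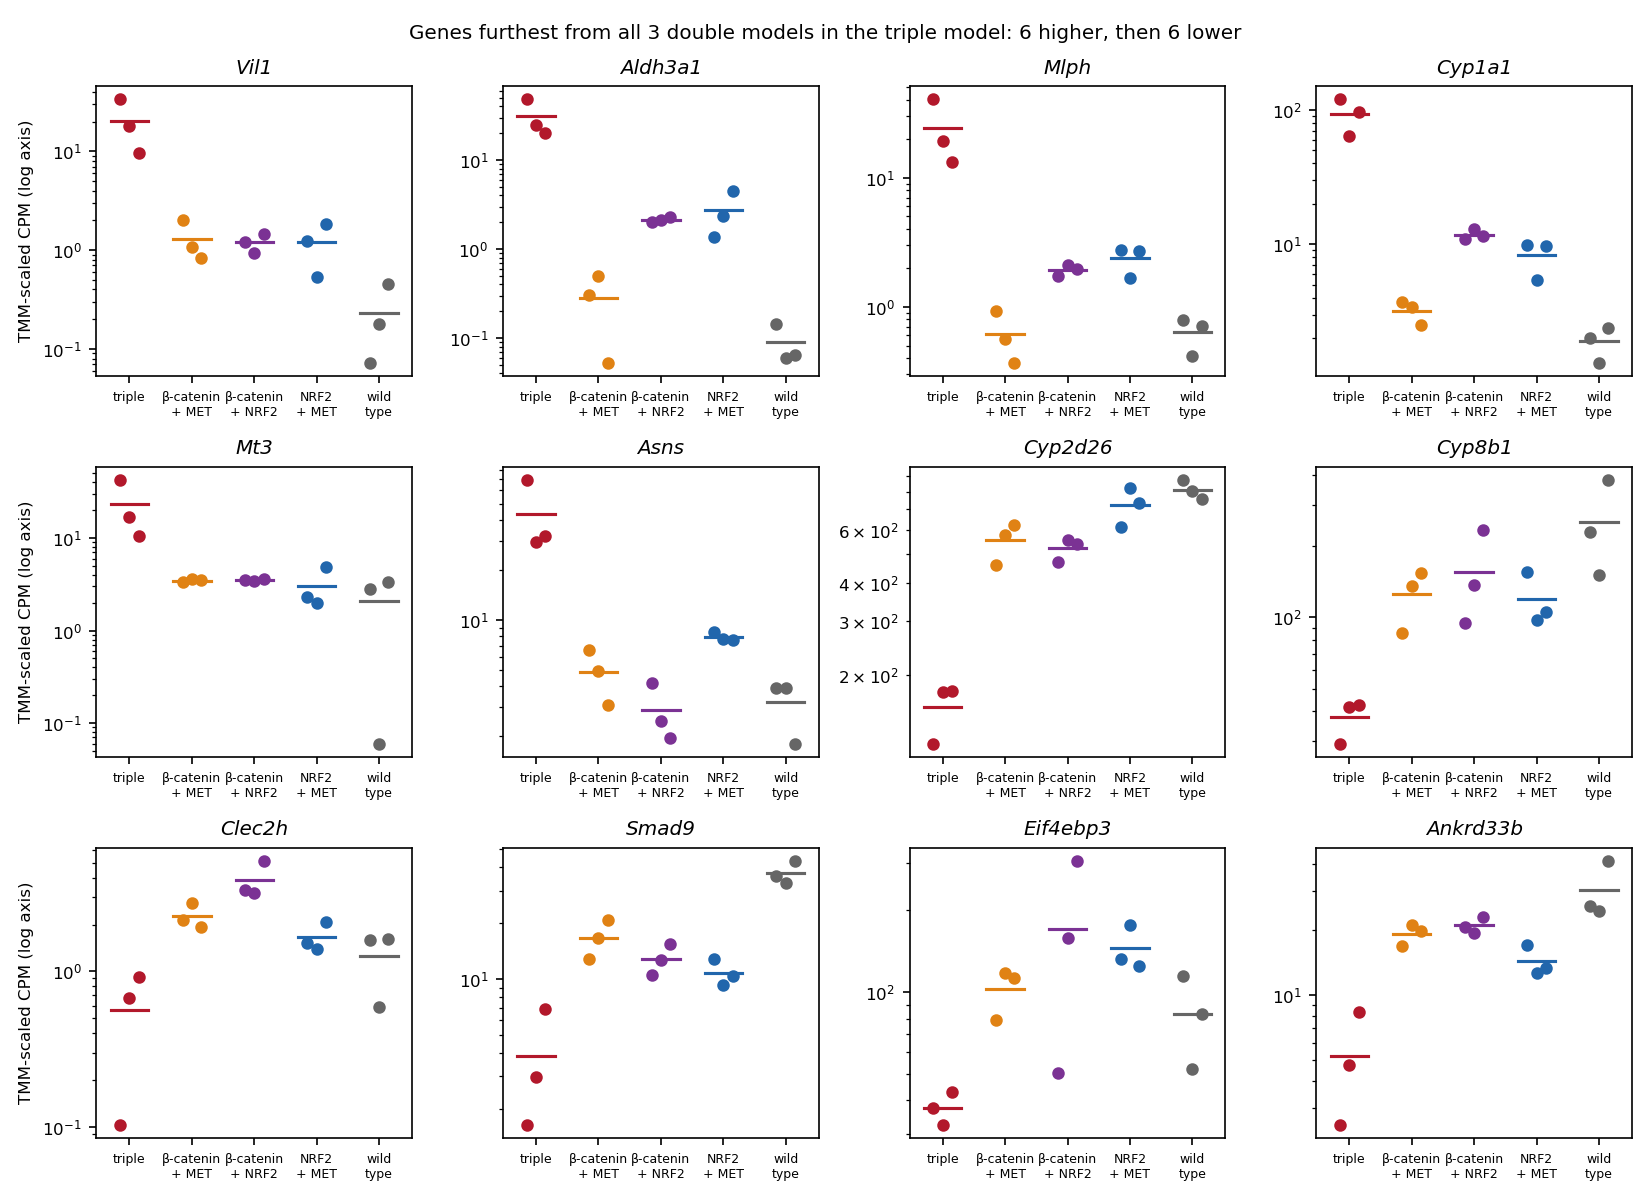
TMM-scaled CPM on a log axis of 6 genes higher and 6 genes lower in triple livers than in every double model, with 1 point per library, a bar at each group mean, and the groups in the order triple, the 3 doubles, WT. Vil1 sits at 9.54 to 33.6 CPM in triple livers, above the 0.532 to 2.02 CPM of the double livers, and Cyp2d26 at 118.3 to 177 CPM, below the 459 to 819 CPM of the double livers.

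Genes for making amino acids and the carbon units of folate were among the strongest of the higher group. Asns, asparagine synthetase (chr6:7675169-7693254, minus strand), had 69.1, 29.4 and 32.1 CPM in triple livers, against 1.95, 4.96 and 8.49 CPM in double livers and 1.80, 3.88 and 3.92 CPM in WT livers. The double livers covered the WT range, and the triple libraries lay above both. The log2 difference was 3.17 ± 0.39 against CTNNB1_MET, 3.91 ± 0.41 against CTNNB1_NFE2L2 and 2.45 ± 0.38 against NFE2L2_MET, with a largest adjusted p of 0.000346. Psat1, of serine synthesis, had 101.2, 75.3 and 59.0 CPM in triple livers, against 7.22, 14.04 and 24.6 CPM in double livers and 3.66 to 6.47 CPM in WT livers. Mthfd2, a mitochondrial folate enzyme, had 22.0, 16.4 and 14.6 CPM in triple livers, against 3.12, 4.61 and 9.86 CPM in double livers and 3.02 to 3.45 CPM in WT livers. Both were separate from all other libraries, and no single library left out ended the call of Asns, Psat1 or Mthfd2. The lists around them did not move as a block. Of 17 genes of serine and folate metabolism, 2 met the rule as higher and 1 as lower, and against the mean of the doubles 5 were higher and 7 lower with a median of -0.30. Of 17 genes of the ATF4 stress response, which controls Asns and Psat1, 1 met the rule, and 6 were higher and 2 lower with a median of 0.71, where the median of all genes was 0.01.

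The promoter of Asns is shown because it holds the site by which the ATF4 branch is known to act on the human gene. The 250 bases before the RefSeq start are chr6:7693210-7693459 (GRCm38.p6), read on the minus strand. The capitals mark GCAGTGTCA, which is TGACNNNGC (the core of an antioxidant response element) on the other strand, and TGATGAAAC, the amino acid response site.
Asns: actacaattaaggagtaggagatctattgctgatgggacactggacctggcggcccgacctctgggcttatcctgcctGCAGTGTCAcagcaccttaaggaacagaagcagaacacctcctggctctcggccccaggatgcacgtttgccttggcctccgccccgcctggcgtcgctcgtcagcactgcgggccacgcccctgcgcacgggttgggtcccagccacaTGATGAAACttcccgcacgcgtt
TGATGAAAC starts 23 bases before the RefSeq start, which lies inside the wider gene span given above, and was searched after the sequence had been seen; both strands of 27025 RefSeq promoters of the same length were searched, and 42 (0.155%) hold it. TGACNNNGC is in 10.15% of them. A match describes letters, not a used site.

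Some genes of nucleotide synthesis and sugar use met the rule as higher. Ctps, which makes CTP, had 30.5, 25.1 and 20.3 CPM in triple livers, against 7.10, 13.6 and 17.4 CPM in double livers and 5.45 to 8.60 CPM in WT livers. Impdh1, of guanine nucleotide synthesis, had 13.3, 11.3 and 8.32 CPM in triple livers, against 3.83, 5.85 and 7.39 CPM in double livers. Neither gene overlapped between triple and double livers, but Ctps lost its call without triple replicate 1 (adjusted p 0.0596). Of 20 genes of nucleotide synthesis 3 met the rule as higher and 0 as lower, and 8 were higher and 0 lower against the mean of the doubles with a median of 0.11. The count of 3 was 1 without triple replicate 1, 2 without triple replicate 2 and 5 with total-count scaling. Pkm, the pyruvate kinase of proliferating tissue, had 525, 305 and 336 CPM in triple livers, against 70.3, 95.9 and 184 CPM in double livers and 53.5, 109 and 115 CPM in WT livers. Its log2 difference was 2.31 ± 0.27 against CTNNB1_MET, 1.24 ± 0.26 against CTNNB1_NFE2L2 and 2.10 ± 0.27 against NFE2L2_MET, with a largest adjusted p of 0.0038. Hk2, a hexokinase scarce in normal hepatocytes, had 6.66, 2.74 and 3.21 CPM in triple livers, against 0.858, 1.86 and 2.42 CPM in double livers. Hk2 lost its call in 6 of 15 fits with a library left out (adjusted p 0.249 without triple replicate 1). Egln3, a prolyl hydroxylase induced by hypoxia, had 62.4, 40.4 and 39.9 CPM in triple livers, against 8.72, 13.0 and 25.5 CPM in double livers and 11.03 to 13.2 CPM in WT livers. Of 16 glycolysis genes 2 met the rule as higher (1 without triple replicate 1), and 5 were higher and 1 lower against the mean of the doubles with a median of 0.20. Of 13 hypoxia genes 1 met the rule, and 6 were higher and 3 lower.

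Few target genes of β-catenin and NRF2 met the rule. Axin2, a feedback target of β-catenin (chr11:108920349-108950783, plus strand), had 50.9, 47.2 and 40.9 CPM in triple livers, against 15.7 to 18.1 CPM in CTNNB1_MET, 26.0 to 31.2 CPM in CTNNB1_NFE2L2, 2.35 to 5.19 CPM in NFE2L2_MET and 6.05 to 11.3 CPM in WT livers. The order of the groups was complete between the triple and all doubles, and the log2 difference from the nearest, CTNNB1_NFE2L2, was 0.65 ± 0.21 (adjusted p 0.0365). That call was lost in 5 of 15 fits with a library left out, with a highest adjusted p of 0.134 without CTNNB1_NFE2L2 replicate 2. Rhbg, an ammonium transporter of pericentral hepatocytes, had 129, 146 and 138 CPM in triple livers, against 76.7 to 106.5 CPM in CTNNB1_MET, 67.0 to 102 CPM in CTNNB1_NFE2L2, 6.70 to 7.84 CPM in NFE2L2_MET and 4.98 to 9.06 CPM in WT livers. Its call ended without CTNNB1_MET replicate 3 (adjusted p 0.0719). Glul, glutamine synthetase and the most used marker of β-catenin activity in liver, did not meet the rule. It had 3046, 2985 and 2519 CPM in triple livers and 3768 to 4216 CPM in CTNNB1_NFE2L2 livers, a log2 difference of -0.46 ± 0.15 (adjusted p 0.0308). Of 16 β-catenin targets 1 met the rule and 13 were higher and 2 lower against the mean of the doubles, a comparison in which NFE2L2_MET lacks the β-catenin transgene. Against CTNNB1_NFE2L2 3 of the 16 were higher and 3 lower.

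NRF2 targets separated the triple from CTNNB1_MET, which lacks the NRF2 transgene, more than from the other doubles. Nqo1, the quinone reductase used as a readout of NRF2, had 295, 261 and 249.1 CPM in triple livers, against 7.36 to 10.9 CPM in CTNNB1_MET, 243 to 251 CPM in CTNNB1_NFE2L2 and 73.8 to 120 CPM in NFE2L2_MET livers. Triple and CTNNB1_NFE2L2 livers overlapped, with a log2 difference of 0.11 ± 0.15 (adjusted p 0.627). Gclc, of glutathione synthesis, differed from CTNNB1_NFE2L2 by 0.39 ± 0.21 (adjusted p 0.195) and from NFE2L2_MET by 0.65 ± 0.21 (adjusted p 0.0302). G6pdx, which makes NADPH in the pentose phosphate pathway, met the rule. It had 87.0, 64.4 and 50.9 CPM in triple livers, against 10.6 to 12.2 CPM in CTNNB1_MET, 31.8 to 39.8 CPM in CTNNB1_NFE2L2, 31.1 to 51.1 CPM in NFE2L2_MET and 7.25 to 8.92 CPM in WT livers. The lowest triple library fell just below the highest NFE2L2_MET library, and the call ended without triple replicate 1 (adjusted p 0.105). Of 21 NRF2 genes of glutathione and thioredoxin 1 met the rule, and of 22 of detoxification 0 did, while 17 and 19 were higher than the mean of the doubles, which includes CTNNB1_MET. Against CTNNB1_MET 18 and 21 were higher and 0 lower. Against CTNNB1_NFE2L2 the glutathione and thioredoxin list had 1 higher and 1 lower (median 0.00), and the detoxification list 1 higher and 6 lower (median -0.32).

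Genes read as output of receptor tyrosine kinase and ERK signalling included 3 of 20 that met the rule as higher and 0 as lower (5 with total-count scaling). Against the mean of the doubles, which includes CTNNB1_NFE2L2 without the MET transgene, 9 of 20 were higher. Against CTNNB1_NFE2L2 12 were higher and 0 lower. Against CTNNB1_MET 4 were higher and 1 lower (median 0.11), and against NFE2L2_MET 5 were higher and 0 lower. Etv5, an ETS factor induced by ERK, had 18.6, 14.9 and 13.1 CPM in triple livers, against 7.31 to 9.75 CPM in CTNNB1_MET, 4.39 to 5.11 CPM in CTNNB1_NFE2L2, 5.06 to 7.10 CPM in NFE2L2_MET and 4.49 to 6.18 CPM in WT livers. The triple lay above every other library, and its nearest model was CTNNB1_MET at 0.83 ± 0.18 (adjusted p 0.00241). Plaur, the urokinase receptor, had 19.1, 12.6 and 8.22 CPM in triple livers, against 1.35, 1.996 and 4.75 CPM in double livers and 0.449 to 1.44 CPM in WT livers. Fosl1, an AP-1 subunit, was scarce at 1.79, 1.35 and 0.584 CPM in triple livers, and at 0 to 0.338 CPM in double livers. These 3 calls were kept with each single library left out. Dusp6, the ERK phosphatase, had 147, 106.5 and 109 CPM in triple livers, all above the 57.0 to 102 CPM of the double livers, but its difference passed the test against CTNNB1_NFE2L2 alone (0.79 ± 0.24, adjusted p 0.0265).

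Genes of mitosis were higher in triple livers as a block against CTNNB1_MET and NFE2L2_MET, and by less against CTNNB1_NFE2L2. Of 30 mitosis genes, 30 were higher and 0 lower in each of the comparisons with CTNNB1_MET and NFE2L2_MET, with medians of 1.60 and 2.97. Against CTNNB1_NFE2L2 5 of 30 were higher and 0 lower, with a median of 0.26, and these 5 met the rule: Mki67, Ccna2, Bub1, Anln and Melk. Mki67, which encodes the proliferation antigen Ki-67, had 63.9, 91.1 and 67.9 CPM in triple livers, against 19.4 to 32.2 CPM in CTNNB1_MET, 42.6 to 56.3 CPM in CTNNB1_NFE2L2, 5.32 to 8.36 CPM in NFE2L2_MET and 2.76 to 3.81 CPM in WT livers. Bub1, a kinase of the spindle checkpoint, had 7.78, 10.1 and 8.51 CPM in triple livers, 3.89 to 5.49 CPM in CTNNB1_NFE2L2 and at most 1.53 CPM in the other double livers. Ccna2, the S and G2 phase cyclin A, had 14.7, 20.5 and 15.7 CPM in triple livers, against 1.33, 4.96 and 10.97 CPM in double livers. For each of these the triple libraries lay above all doubles, yet without triple replicate 2 the count of 5 fell to 0. The log2 difference of Mki67 from CTNNB1_NFE2L2 was 0.54 ± 0.19 (adjusted p 0.0487), and it lost its call in 10 of 15 fits with a library left out. Of 30 genes of DNA replication 0 met the rule as higher and 1 as lower, while 20 were higher and 1 lower against the mean of the doubles. Against CTNNB1_NFE2L2 alone 1 of these 30 was higher and 2 lower, with a median of 0.146. In CTNNB1_NFE2L2 livers 26 of the 30 were higher than WT and 1 lower.

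The replication gene that met the rule as lower was Mcm10, a loader of the replication fork (chr2:4989714-5012791, minus strand). It was also the 1 gene of its list that was lower against the mean of the doubles. It had 14.5, 35.3 and 47.3 CPM in triple livers, against 58.2, 95.5 and 125 CPM in double livers and 167, 178 and 226 CPM in WT livers. The 3 kinds of liver did not overlap in Mcm10. Its log2 difference was -1.70 ± 0.39 against CTNNB1_MET, -1.27 ± 0.39 against CTNNB1_NFE2L2 (adjusted p 0.0304) and -1.54 ± 0.39 against NFE2L2_MET. No exon of another annotated gene overlaps it, and its call ended without CTNNB1_NFE2L2 replicate 3 (adjusted p 0.125), CTNNB1_NFE2L2 replicate 2, triple replicate 1 or triple replicate 2.

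The Mki67 promoter is shown as that of a mitosis gene, and TTTGAA, the cell cycle homology region, is a known element of such promoters. TTTGAA was not found in the promoter of Bub1, another mitosis gene, and was found in that of Cyp2d26, a lower gene. The 250 bases before the RefSeq start are chr7:135716380-135716629 (GRCm38.p6), read on the minus strand, and the capitals mark TTTGAA, which occurs at 2 places.
Mki67: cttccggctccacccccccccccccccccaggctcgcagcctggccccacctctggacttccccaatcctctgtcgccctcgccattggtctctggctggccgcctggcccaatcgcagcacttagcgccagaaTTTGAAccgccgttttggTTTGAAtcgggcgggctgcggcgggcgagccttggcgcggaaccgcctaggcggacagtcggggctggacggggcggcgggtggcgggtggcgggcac
On either strand TTTGAA is in 16.274% of the 27025 RefSeq promoters of this length. An entry exists for 77.97% of the higher, 75.83% of the lower and 79.31% of all tested genes. Among genes with an entry TTTGAA was in 13.0% of the higher, 11.4% of the lower and 10.9% of all tested genes. The difference between these shares was not tested.

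Genes of epithelial junctions, the tumour surface and fetal liver made up a further group. Itgb4, the integrin chain of hemidesmosomes (chr11:115974709-116008412, plus strand), had 13.7, 5.67 and 3.31 CPM in triple livers, against 0.530, 1.20 and 2.17 CPM in double livers and 0.770 to 1.29 CPM in WT livers. The log2 difference was 3.36 ± 0.50 against CTNNB1_MET, 2.0 ± 0.44 against CTNNB1_NFE2L2 and 2.73 ± 0.47 against NFE2L2_MET. Cdh17, an intestinal cadherin, had 255, 201 and 198 CPM in triple livers, against 39.4 to 84.1 CPM in CTNNB1_MET, 1.88 to 2.85 CPM in CTNNB1_NFE2L2, 1.80 to 2.89 CPM in NFE2L2_MET and 0 to 0.834 CPM in WT livers. The nearest double was CTNNB1_MET, with a log2 difference of 1.88 ± 0.31 for the triple. Golm1, a Golgi protein raised in liver disease, was high in every model. It had 80.6, 90.7 and 83.6 CPM in triple livers, against 32.3, 46.4 and 64.3 CPM in double livers and 2.67 to 3.38 CPM in WT livers. Gpc3, glypican-3 of fetal liver and hepatocellular carcinoma, had 665, 356 and 262 CPM in triple livers, against 137 to 220 CPM in CTNNB1_MET, 13.6 to 19.9 CPM in CTNNB1_NFE2L2, 62.0 to 117.9 CPM in NFE2L2_MET and 0.935 to 3.33 CPM in WT livers.

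The triple and double libraries did not overlap for any of these 4 genes. Gpc3 lost its call without triple replicate 1 (adjusted p 0.122), CTNNB1_MET replicate 2 or CTNNB1_MET replicate 3, and the other 3 kept it with each library left out. Afp, the fetal albumin relative, had 1974, 880 and 763 CPM in triple livers, overlapping the 669 to 926 CPM of CTNNB1_MET, and did not meet the rule (0.60 ± 0.45 against CTNNB1_MET, adjusted p 0.336). Of 16 oncofetal genes 2 met the rule as higher (1 without triple replicate 1), and 8 were higher and 0 lower against the mean of the doubles. Of 16 keratin and junction genes 3 met the rule as higher, and without triple replicate 2 only 1 did. Car4, a membrane carbonic anhydrase, had 40.0, 47.2 and 23.6 CPM in triple livers, against 10.4 to 12.9 CPM in CTNNB1_MET, 8.56 to 18.2 CPM in CTNNB1_NFE2L2 and 0.0665 to 0.471 CPM in NFE2L2_MET livers. It was thus above its nearest doubles and far above the model without β-catenin. The 9 carbonic anhydrases tested did not share this direction: 1 met the rule as higher and 1 as lower. Against the mean of the doubles 2 of the 9 were higher and 4 lower, with a median of -0.43. Anxa4, an annexin common in bile duct epithelium, had 155, 136 and 117.1 CPM in triple livers, against 69.2 to 104.8 CPM in double livers. Of 9 cholangiocyte markers tested 2 met the rule as higher. Against the mean of the doubles 4 were higher and 0 lower (median -0.045), and against NFE2L2_MET 2 were higher and 3 lower. The sum over all 10 listed was 207 to 293 CPM in triple, 148 to 181 in CTNNB1_MET, 124 to 146 in CTNNB1_NFE2L2 and 262 to 377 in NFE2L2_MET livers.

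Part of the genes of antigen presentation and of the interferon response met the rule as higher. Of 16 antigen presentation genes 6 met the rule as higher and 0 as lower, and 9 were higher and 0 lower against the mean of the doubles with a median of 0.52. Against CTNNB1_NFE2L2 12 were higher and 0 lower, and against NFE2L2_MET 7 and 0. Against CTNNB1_MET 6 were higher and 2 lower, with a median of 0.04. Ciita, the master activator of MHC class II genes, had 9.32, 6.54 and 7.15 CPM in triple livers, against 2.20 to 3.81 CPM in CTNNB1_MET, 0.778 to 2.32 CPM in CTNNB1_NFE2L2, 2.26 to 4.01 CPM in NFE2L2_MET and 0.863 to 0.962 CPM in WT livers. H2-Ab1, a class II chain, had 154, 86.2 and 108 CPM in triple livers, against 23.8, 50.2 and 71.1 CPM in double livers and 17.9 to 30.1 CPM in WT livers. H2-DMa, which loads peptides on class II molecules, had 13.7, 9.28 and 10.6 CPM in triple livers, against 3.78, 5.27 and 5.99 CPM in double livers. The triple libraries were above all doubles for each, with a smallest log2 difference of 1.20 ± 0.30 for Ciita, 0.99 ± 0.27 for H2-Ab1 and 1.02 ± 0.20 for H2-DMa. H2-Ab1 lost its call without triple replicate 1 (adjusted p 0.0739) or NFE2L2_MET replicate 2, and without triple replicate 1 the count of 6 fell to 2. Of 20 interferon genes 3 met the rule, Gbp3 and Gbp2 among them, and 9 were higher than the mean of the doubles. Against CTNNB1_NFE2L2 alone 4 of the 20 were higher and 2 lower, with a median of 0.098. In CTNNB1_NFE2L2 livers 18 of the 20 were higher than WT and 1 lower. Gbp2 lost its call in 4 of 15 fits with a library left out (highest adjusted p 0.122 without CTNNB1_MET replicate 2) and Gbp3 in 1 (adjusted p 0.0514). Without the 3 libraries marked as added the adjusted p was 0.15 for Gbp2 and 0.0878 for Gbp3.

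Markers of several immune cell types were also read. Of 16 macrophage markers 0 met the rule and 9 were higher than the mean of the doubles; their summed level was 756 to 1097 CPM in triple livers, 461 to 573 in CTNNB1_MET, 702 to 962 in CTNNB1_NFE2L2, 700 to 783 in NFE2L2_MET and 313 to 383 in WT livers. Of 9 dendritic cell markers 1, Irf8, met the rule (largest adjusted p 0.0469) and 4 were higher than the mean of the doubles. Irf8 lost its call in 11 of 15 fits with a library left out (highest adjusted p 0.256 without triple replicate 1), and 0 of the 9 met the rule with DESeq2 (Irf8 adjusted p 0.0517) or RLE size factors. Their sum was 26.3 to 34.6 CPM in triple livers, 16.3 to 21.8 CPM in double livers and 13.4 to 14.95 CPM in WT livers, with no overlap. Of 6 B and plasma cell markers 2 were higher than the mean of the doubles, and their sum was 6.35 to 16.8 CPM in triple livers and 3.67 to 18.9 CPM in double livers. Of 9 T and NK cell markers tested 5 were higher, and the sum over all 15 listed was 14.1 to 19.3 CPM in triple livers and 6.85 to 14.3 CPM in double livers. Of 3 neutrophil markers tested 0 were higher or lower than the mean of the doubles. The sum over all 7 in the files was 3.27 to 8.91 CPM in triple livers, 1.84 to 29.0 CPM in double livers and 1.65 to 6.82 CPM in WT livers. Of the T and NK, B and plasma, and neutrophil markers 0 met the rule. The part of these cells in the class II and interferon levels was not tested. Cd274, the ligand of the PD-1 checkpoint, had 4.20, 3.32 and 5.01 CPM in triple livers, against 1.53, 1.89 and 3.49 CPM in double livers. Its difference passed the test against NFE2L2_MET (1.32 ± 0.33, adjusted p 0.00686), but not against CTNNB1_MET (0.82 ± 0.32, adjusted p 0.0582) or CTNNB1_NFE2L2 (0.83 ± 0.32, adjusted p 0.065).

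**Figure D3:**
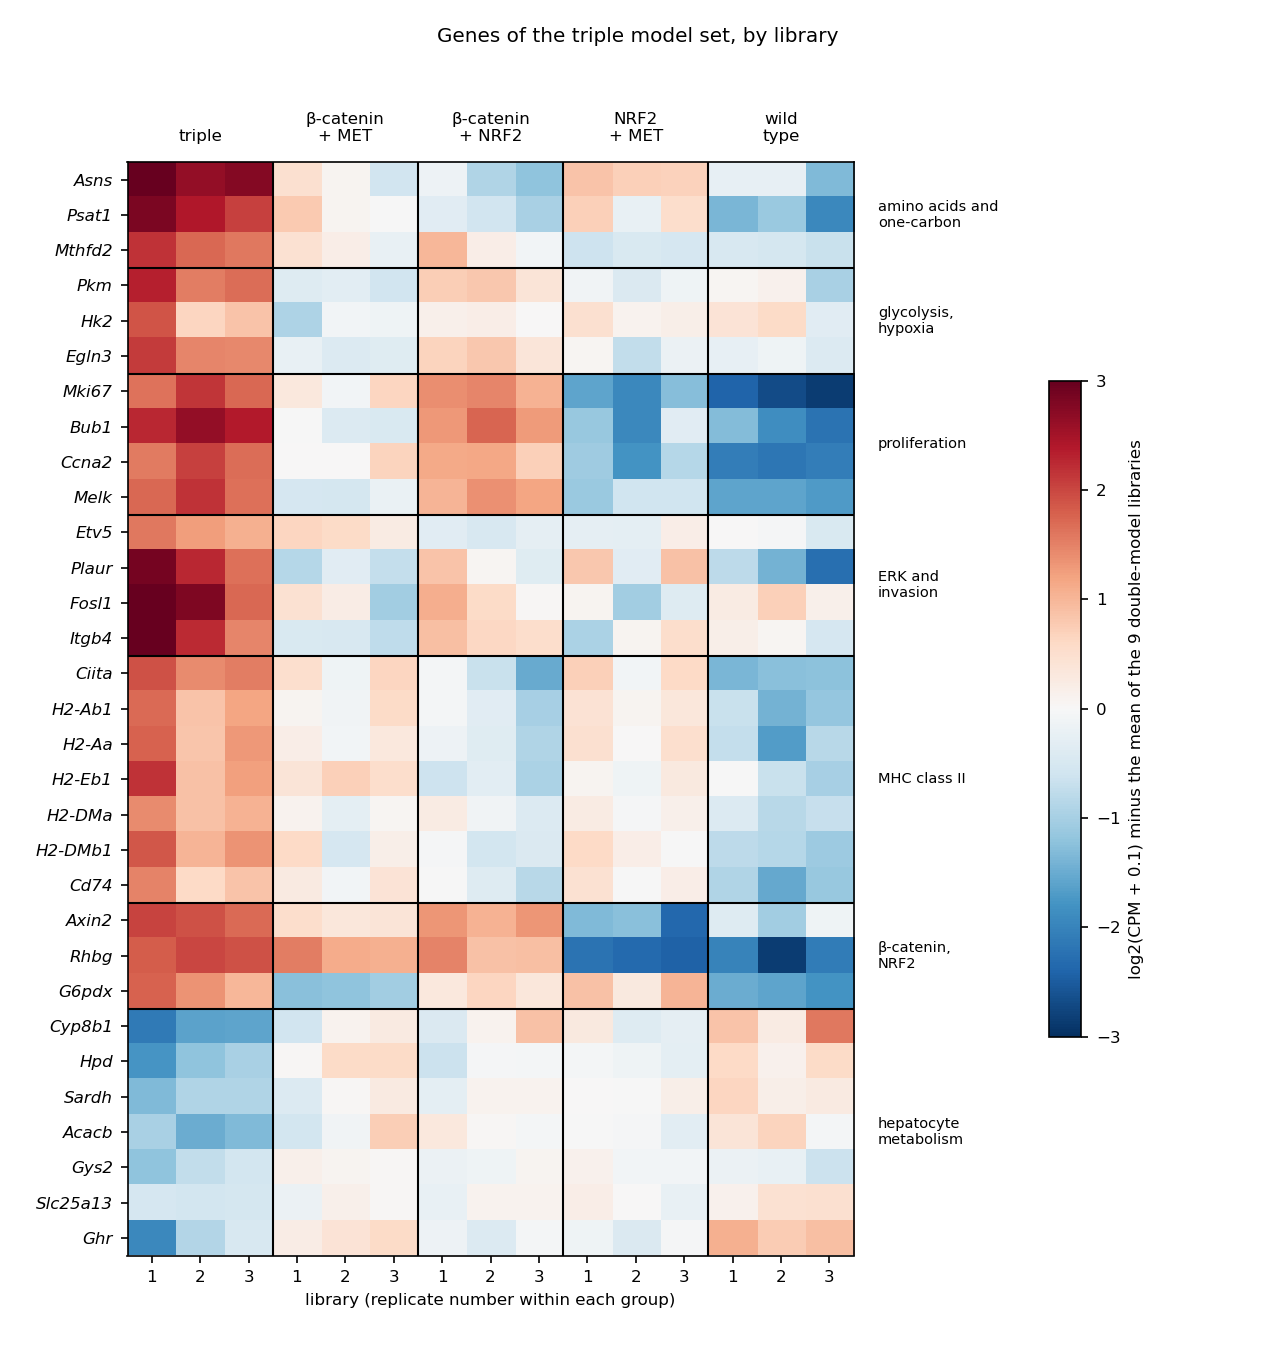
Colour gives log2(CPM + 0.1) minus the mean of the 9 double libraries for genes (rows) in the 15 libraries (columns), with triple libraries at the left and WT at the right; the genes met the rule and were picked for display after their values were seen. Genes of biosynthesis, the cell cycle and MHC class II are above 0 in the 3 triple libraries, as Asns at 29.4 to 69.1 CPM, and genes of hepatocyte metabolism below 0, as Cyp8b1 at 29.1 to 42.7 CPM.

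The lower genes with the widest gap to the doubles included cytochrome P450 enzymes, a transcription factor and a receptor. Cyp2d26, a cytochrome P450 of drug metabolism (chr15:82790101-82794294, minus strand), had 118.3, 175 and 177 CPM in triple livers, against 459, 578 and 819 CPM (lowest, median, highest) in double livers and 754, 801 and 872 CPM in WT livers. The triple libraries were below all others, and the log2 difference was -1.82 ± 0.17 against CTNNB1_MET, -1.73 ± 0.17 against CTNNB1_NFE2L2 and -2.20 ± 0.17 against NFE2L2_MET, with a largest adjusted p of 1.06e-05. Cyp8b1, the sterol 12-hydroxylase that sets the cholic acid share of bile acids, had 29.1, 41.9 and 42.7 CPM in triple livers, against 86.1, 136 and 234 CPM in double livers and 151, 229 and 381 CPM in WT livers. Smad9, a transcription factor of BMP signalling, had 1.64, 2.98 and 6.91 CPM in triple livers, against 9.32, 12.8 and 20.7 CPM in double livers and 32.9 to 43.2 CPM in WT livers. For Cyp8b1 and Smad9 the triple was below all doubles, and for Smad9 the doubles were also below WT. Adrb3, a β-adrenergic receptor, had 1.54, 3.17 and 2.63 CPM in triple livers, against 4.07, 7.73 and 11.6 CPM in double livers, which covered the WT range of 5.82 to 10.1 CPM. The calls of Cyp2d26, Cyp8b1, Smad9 and Adrb3 held with each library left out. Clec2h and Eif4ebp3 were as far below the doubles but lost their calls in 4 and 10 of 15 such fits.

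Of 18 enzymes that break down amino acids 3 met the rule as lower and 0 as higher, and 13 were lower and 0 higher against the mean of the doubles with a median of -0.62. Against CTNNB1_NFE2L2 6 were lower and 12 did not pass, with a median of -0.46. Hpd, of tyrosine breakdown, had 445, 659 and 772 CPM in triple livers, against 970, 1462 and 2265 CPM in double livers and 1663 to 2303 CPM in WT livers. Sardh, the sarcosine dehydrogenase of mitochondria and the lower gene of the serine and folate list, had 196, 261 and 261 CPM in triple livers, against 369, 504 and 591 CPM in double livers and 555 to 766 CPM in WT livers. Neither overlapped, with log2 differences of -1.70 ± 0.23, -1.06 ± 0.22 and -1.12 ± 0.22 for Hpd and -1.03 ± 0.18, -1.01 ± 0.18 and -1.09 ± 0.18 for Sardh against CTNNB1_MET, CTNNB1_NFE2L2 and NFE2L2_MET. Kmo, of tryptophan breakdown, and Aass, of lysine breakdown, also met the rule but lost their calls in 11 of 15 fits with a library left out, and with total-count scaling. The list count of 3 was 1 without triple replicate 1 or 2. Of 7 urea cycle genes 1 met the rule, Slc25a13, the mitochondrial aspartate-glutamate carrier. It had 125, 122.5 and 125 CPM in triple livers, against 154 to 206 CPM in double livers, but lost its call with total-count scaling (adjusted p 0.294). Against the mean of the doubles 6 of 7 were lower, with a median of -1.05. Against CTNNB1_NFE2L2 alone 2 of 7 were lower and 0 higher, with a median of -0.28.

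Some genes of lipid, bile acid and glycogen metabolism also met the rule as lower. Acacb, the acetyl-CoA carboxylase that makes malonyl-CoA at mitochondria, had 20.8, 14.6 and 16.2 CPM in triple livers, against 27.8, 39.9 and 67.7 CPM in double livers and 38.9 to 64.7 CPM in WT livers. Gys2, liver glycogen synthase, had 126, 174 and 196 CPM in triple livers, against 254, 297 and 318 CPM in double livers and 186, 246 and 258 CPM in WT livers. Gys2 was thus lower in triple than in double livers without overlap, while the doubles reached above WT. The log2 difference nearest to 0 was -1.13 ± 0.28 for Acacb and -0.73 ± 0.16 for Gys2, and both calls held with each library left out. Of 14 bile acid genes 2 met the rule as lower (1 without triple replicate 1 or 2), and 8 were lower and 1 higher than the mean of the doubles with a median of -0.59. Of 15 fatty acid synthesis genes 1 met the rule and 10 were lower and 2 higher, with a median of -0.54. Against CTNNB1_NFE2L2 alone 1 of these 15 was lower and 3 higher, with a median of -0.14. Of 11 genes of gluconeogenesis and glycogen 1 met the rule and 6 were lower, with a median of -0.81. Against CTNNB1_NFE2L2 alone 1 of these 11 was lower and 0 higher, with a median of -0.06. Other lipid lists moved less: of 16 genes of cholesterol synthesis 0 met the rule and 3 were lower, with a median of -0.24. Of 16 genes of fatty acid oxidation 1 met the rule as lower, and 4 were lower and 0 higher with a median of -0.15, which with total-count scaling was 0.07 with 1 lower and 4 higher.

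Male-biased liver genes, which depend on growth hormone, were lower against the mean of the doubles (8 of 11, median -1.22). The rule was met by 2 of 11 (1 without triple replicate 1 or 2). Against CTNNB1_NFE2L2 alone 4 of 11 were lower and 0 higher, with a median of -0.54. Compared with WT, 9 of 11 were lower in triple livers (median -2.431) and 8 of 11 in CTNNB1_NFE2L2 livers (median -2.265). Those that met the rule were Cyp2d9, a cytochrome P450, and C6, a complement component. Cyp2d9 had 462, 746 and 820 CPM in triple livers, against 1078 to 1464 CPM in double livers. C6 had 84.6, 126 and 166 CPM in triple livers, against 144 to 424 CPM in double livers. C6 overlapped between the groups in 1 CTNNB1_NFE2L2 library and lost its call in 8 of 15 fits with a library left out. Of 12 female-biased liver genes 0 met the rule, and 2 were higher and 3 lower against the mean of the doubles (median -0.42). Ghr, the growth hormone receptor, had 69.0, 143 and 188 CPM in triple livers, against 194, 253 and 392 CPM in double livers and 448 to 553 CPM in WT livers. No library overlapped, but its call ended in 13 of 15 fits with a library left out (highest adjusted p 0.127) and with total-count scaling. Of 12 growth hormone and IGF genes 1 met the rule as lower. Against the mean of the doubles 4 of these 12 were lower and 0 higher (median -0.13). Periportal hepatocyte genes fell against the mean of the doubles (13 of 16, median -1.27), but 1 of 16 met the rule. Against CTNNB1_NFE2L2 alone 3 were higher and 2 lower, with a median of -0.05. Cyp2f2, a periportal cytochrome P450, had 108, 168 and 261 CPM in triple livers, inside the 81.6 to 299 CPM of CTNNB1_NFE2L2. Of 17 hepatocyte transcription factors 9 were lower than the mean of the doubles and 1 met the rule. Against CTNNB1_NFE2L2 alone 2 of the 17 were higher and 2 lower, with a median of -0.157. Hnf4a had 592, 532 and 557 CPM in triple livers, overlapping the 541 to 915 CPM of the double livers. Alb had 48190 to 54980 CPM in triple livers, 96150 to 99340 in CTNNB1_MET, 14260 to 19830 in CTNNB1_NFE2L2, 100800 to 140100 in NFE2L2_MET and 43890 to 63510 in WT livers.

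**Figure D4:**
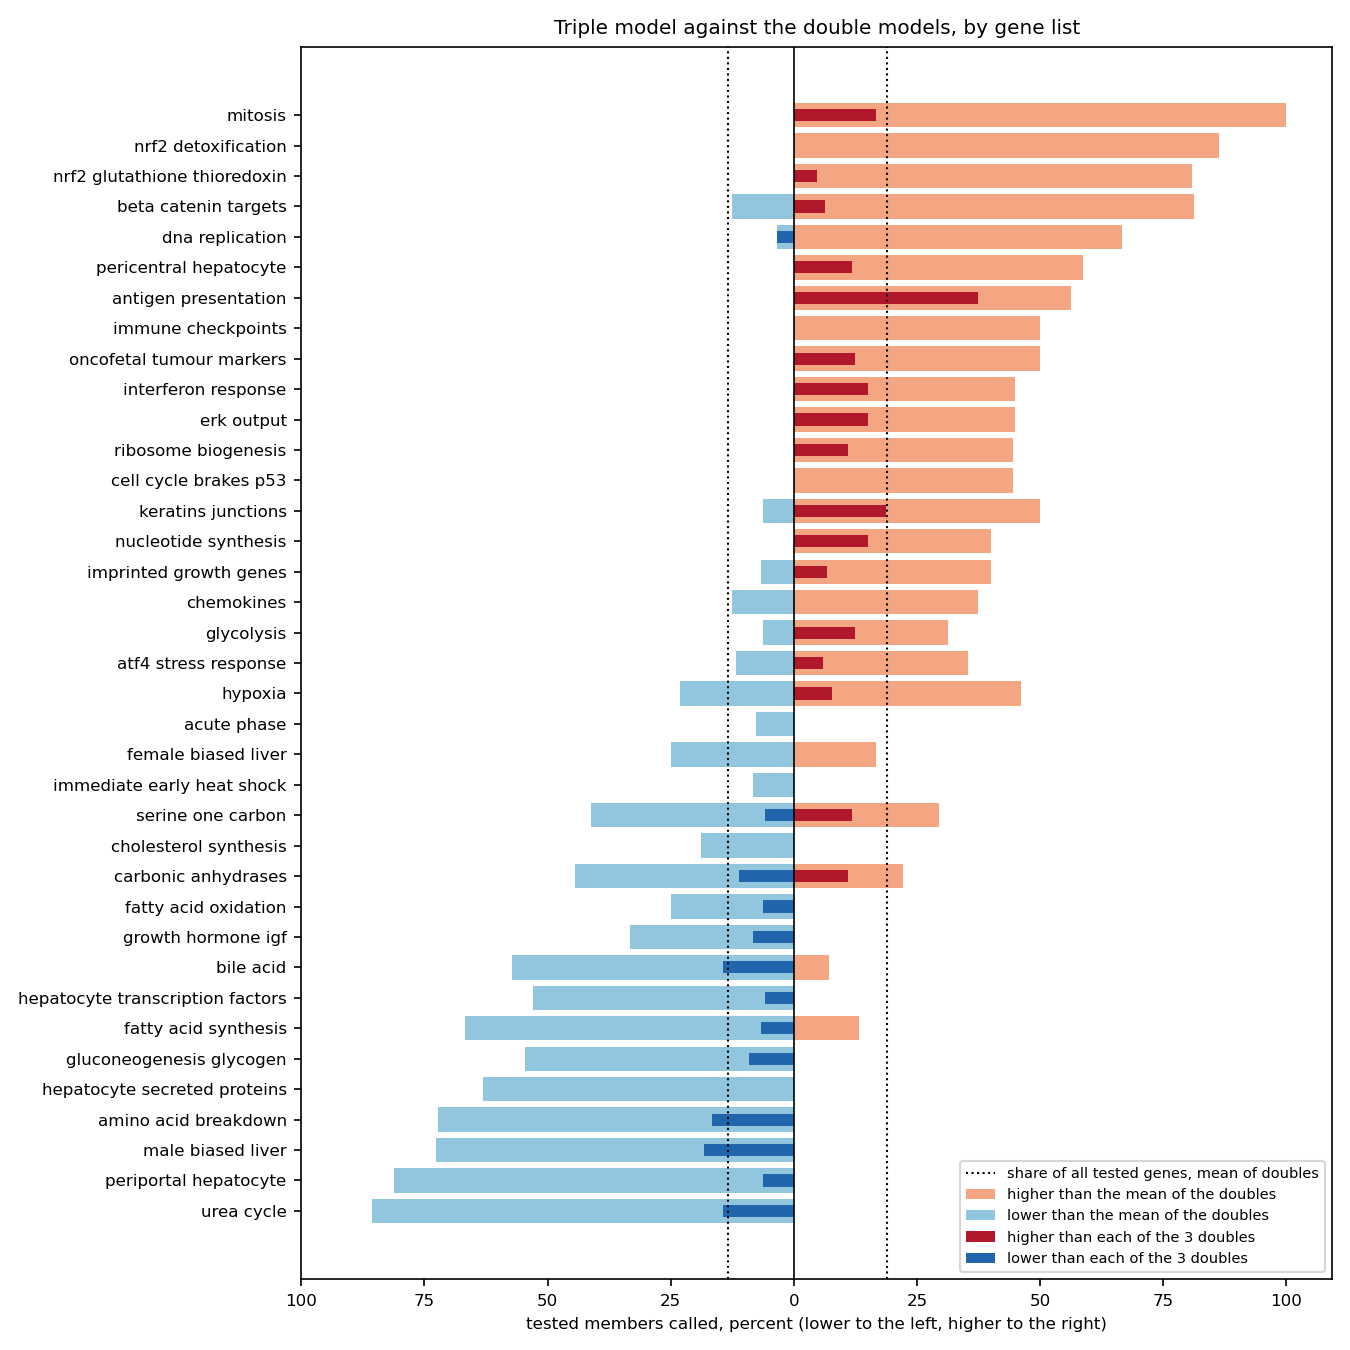
Percent of the tested members of each gene list that were higher (right) or lower (left) in triple livers, with wide pale bars for the comparison with the mean of the doubles, narrow dark bars for genes beyond each of the 3 doubles, and dotted lines at the 18.9% and 13.3% of all tested genes. Mitosis has the longest bar to the right, 30 of 30 members, and the urea cycle the longest to the left, 6 of 7.

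With no single-transgene livers among the groups, a test of additivity was limited to the whole. If the 3 transgenes added up on the log2 scale, the difference of the triple from WT would equal the summed differences of the 3 doubles from WT divided by 2. Of 14098 genes 764 (5.42%) were above this sum and 710 (5.04%) below it. The count of 1474 was 518 without triple replicate 1, 772 without triple replicate 2, 916 without CTNNB1_MET replicate 2 and 927 without CTNNB1_NFE2L2 replicate 3. With total-count scaling the split was 3066 above and 308 below. Of the 463 genes higher than every double, 273 were above the sum, 2 below and 188 did not pass. Of the 302 lower genes 205 were below the sum, 0 above and 97 did not pass. This test shares the triple libraries with the rule that chose these genes, so the counts describe them.

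Genes above the sum included Mlph, with a departure of 3.52 ± 0.44 (log2), Asns with 2.88 ± 0.38 and Cyp1a1 with 2.86 ± 0.27. Elfn2, a membrane protein with leucine-rich repeats, had 23.6, 9.86 and 9.05 CPM in triple livers, against 0.261 to 0.368 CPM in CTNNB1_MET, 4.73 to 5.85 CPM in CTNNB1_NFE2L2, 0.133 to 0.630 CPM in NFE2L2_MET and 0.0593 to 0.575 CPM in WT livers. Ptgs2, the inducible cyclooxygenase COX-2, had 13.0, 7.36 and 4.67 CPM in triple livers, against 0.0556, 0.732 and 3.09 CPM in double livers and 0.770 to 1.48 CPM in WT livers. Krt5, a basal keratin, had 115.8, 70.8 and 77.5 CPM in triple livers, against 18.9 to 55.8 CPM in NFE2L2_MET, 0.418 to 1.16 CPM in both other doubles and 0 to 0.513 CPM in WT livers. These 3 genes were higher in the triple than in every double without overlap, and each lost that call without triple replicate 1 (adjusted p 0.0839 for Elfn2, 0.0793 for Ptgs2 and 0.0745 for Krt5).

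The genes described here are those with the largest departures below the sum. Tff3, a trefoil peptide of mucous epithelia, had 2.56, 2.16 and 2.14 CPM in triple livers, against 1.35 to 2.25 CPM in CTNNB1_MET, 1.15 to 1.88 CPM in CTNNB1_NFE2L2, 56.0 to 94.9 CPM in NFE2L2_MET and 0 to 0.706 CPM in WT livers. The triple was 4.99 ± 0.31 lower than NFE2L2_MET on the log2 scale and near the other doubles. Col4a3, a basement membrane collagen chain, had 0.205, 0.529 and 0.876 CPM in triple livers, against 10.1 to 18.3 CPM in CTNNB1_MET, 0.338 to 0.611 CPM in CTNNB1_NFE2L2, 1.53 to 3.72 CPM in NFE2L2_MET and 0.593 to 0.898 CPM in WT livers. Its triple and WT libraries overlapped. Orm3, an acute-phase protein gene, had 1.64, 0.962 and 2.72 CPM in triple livers, 2.69 to 28.7 CPM in double livers and 1.87 to 4.03 CPM in WT livers. Cyp2b13, a cytochrome P450, had 3.23, 11.3 and 13.0 CPM in triple livers, against 33.8 to 39.5 CPM in CTNNB1_MET, 0.222 to 1.46 CPM in CTNNB1_NFE2L2, 29.6 to 55.1 CPM in NFE2L2_MET and 0 to 0.449 CPM in WT livers. Sult2a6, a sulfotransferase, and Duoxa1, a maturation factor of the dual oxidases, were at 0 in all WT livers, so no departure is given. Sult2a6 had 1.79, 1.83 and 1.26 CPM in triple livers, against 6.02 to 12.1 CPM in CTNNB1_MET, 5.64 to 6.67 CPM in CTNNB1_NFE2L2 and 0 to 0.236 CPM in NFE2L2_MET livers. Duoxa1 had 0.819, 0.913 and 0.292 CPM in triple livers, against 8.52 to 12.2 CPM in CTNNB1_NFE2L2 and at most 0.496 CPM in the other doubles.

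**Figure D5:**
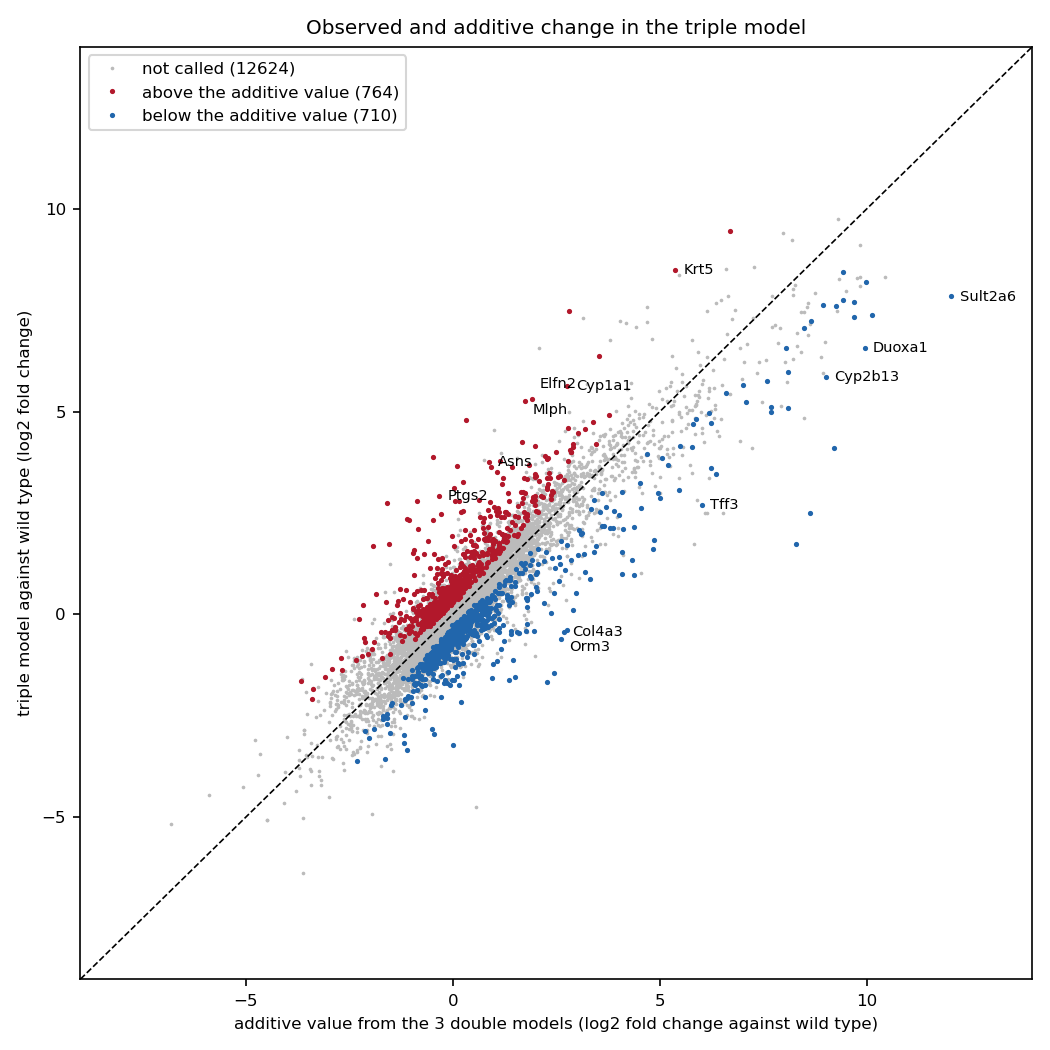
Log2 fold change of triple against WT livers (vertical axis) and the additive value from the 3 double models (horizontal axis), 1 point per gene, with a dashed line where both are equal. The 764 genes in red lie above the line, as Mlph by 3.52 and Asns by 2.88, and the 710 genes in blue below it, as Tff3 by -3.31.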

How the data were processed

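The deposited files held counts of reads per gene for each library, made by the authors; per the submitters' processing notes the tools were Trimmomatic and STAR and the build mm10, with no version or annotation release given in the sources used here. The livers had been frozen fresh before RNA isolation, per the labels' protocols. The unstranded count column was used, and the 4 summary lines of each file (unmapped, multimapping, no gene, ambiguous) were left out of library sizes and tests. Gene counts summed to 14084343 to 20702618 per library, and low genes are limited by counting error.

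The files listed 24411 genes, and 14098 passed filterByExpr. TMM-scaled counts of all 15 libraries were fitted with 1 coefficient per group in edgeR 4.0.16 (R 4.3.3, limma 3.58.1), tested with the quasi-likelihood F test and adjusted by Benjamini-Hochberg, threshold 0.05. Standard errors come from the same fit. CPM are TMM-scaled. Rules combined the 3 comparisons of CTNNB1_NFE2L2_MET with each double model. The steps were tested on simulated data. Samples were grouped by their titles, and replicate numbers follow accession order. The chi-square per gene between replicates of a group was 13.3 to 106, so no pair was a duplicate.

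Named genes were the mouse counterparts of the transgenes, the 12 highest and 12 lowest genes by the smallest of the 3 log2 differences (mean CPM of at least 2, no overlap), up to 3 genes per list, the 6 largest departures from additivity each way and well-known members; not all are described, and a few results are not reported here. Anln was named after its values were seen, as were the genes given in the edge of the threshold. The members and lists were chosen with earlier results of these data known. Coordinates are from the GRCm38.p6 annotation, and promoters from RefSeq on that build. Alternatives were RLE size factors, total-count scaling, no filter, DESeq2 1.42.0, the 12 libraries alone, a 2-fold minimum, adjustment of the largest p, a term for or removal of the 3 libraries marked as added, the unmapped share as a covariate, and leaving out each library.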

Additional observations from a re-analysis of the deposited data

How the results depend on the processing

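The counts against the mean of the doubles (4548), CTNNB1_MET (4765), CTNNB1_NFE2L2 (3520) and NFE2L2_MET (4325), of departures from additivity (1474), and of genes higher (463) and lower (302) than every double changed by over 1.5 times as follows. With the unmapped share as a covariate they were 1449 against the mean, 576 against CTNNB1_MET, 2554 against NFE2L2_MET, 56 higher and 30 lower. With total-count scaling they were 6928 against NFE2L2_MET, 3374 departures, 1121 higher and 93 lower. Adjusting the largest p gave 153 higher and 83 lower, and a 2-fold minimum 144 and 31. With each library left out the counts ranged from 2664 to 4815 against the mean, 3630 to 5077 against CTNNB1_MET, 2259 to 3842 against CTNNB1_NFE2L2, 3241 to 4574 against NFE2L2_MET, 518 to 1614 departures, 226 to 534 higher and 132 to 338 lower. The cause was not tested. The other settings kept each count within 1.5 times: DESeq2 gave 467 higher and 370 lower, of which 435 and 298 were shared, and RLE gave 432 and 323. Of 75 calls of named genes, DESeq2 kept 72, RLE 73, total-count scaling 67, the fit without triple replicate 1 48, without triple replicate 2 52 and with the unmapped share 13. A log2 difference changed sign for Met (-0.20, unmapped share), Esrra against its nearest double (0.0186), Alb (0.0402) and Sult2a6 (0.0324, all total-count scaling; Sult2a6 also ranged from -0.354 to 0.115 with a library left out). Against the mean, Duoxa1 gave 0.17 with total-count scaling, 0.0540 and 0.30 with a term for or without the marked libraries, and -0.337 to 0.309 with a library left out. Cyp2b13 gave 0.0784 with total-count scaling, 0.16 with the unmapped share, and -0.480 to 0.256 with a library left out. No paired analysis was possible because the replicate numbers used here follow accession order and tie no library to one of another group.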

Other observations

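The families below were picked after the values had been seen, so their counts describe these libraries and carry no test of the family. Over all tested genes 3.28% were higher and 2.14% lower than every double model. Against the mean of the doubles the shares were 18.9% and 13.3%. Of 9 MHC class II genes 8 were higher in triple livers than in every double model (Ciita, H2-DMa, H2-DMb2, H2-DMb1, H2-Ab1, H2-Aa, H2-Eb1 and Cd74) and 1, H2-Ob, was not, with a median log2 difference of 1.33 from the mean of the doubles. H2-Aa averaged 135 CPM in triple livers, 59.1 in CTNNB1_MET, 38.9 in CTNNB1_NFE2L2, 67.6 in NFE2L2_MET and 26.1 CPM in WT livers, and differed from the mean of the doubles by 1.33 ± 0.21. Without triple replicate 1 the count was 4. Guanylate-binding proteins, which interferon induces, had 6 of 11 higher than every double and a median of 1.05. They were already higher than WT for 10 of 11 in CTNNB1_MET, 9 in CTNNB1_NFE2L2 and 7 in NFE2L2_MET livers. Over all genes 11%, 24.5% and 13.5% were. In the test of additivity 0 of the 11 departed. The integrin chains had 7 of 22 (4 without triple replicate 1), among them Itga3, a laminin receptor chain, at 64.2 CPM in triple livers, 13.7 in CTNNB1_MET, 22.4 in CTNNB1_NFE2L2, 26.3 in NFE2L2_MET and 11.1 CPM in WT livers, a difference of 1.68 ± 0.20 from the mean of the doubles. Of 11 annexins 3 were higher than every double (Anxa2, Anxa3 and Anxa4).

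Cytosolic aminoacyl-tRNA synthetases, which load amino acids on tRNA, had 6 of 20 higher in triple livers than in every double (Mars, Rars, Hars, Lars, Nars and Qars) and 13 of 20 higher than the mean of the doubles, with a median of 0.33 (12 and 20 with total-count scaling). Against WT 7 of 20 were higher and 1 lower in triple livers, where 26.5% and 23.4% of all genes were. Mars averaged 71.07 CPM in triple and 74.75 CPM in WT livers. Against WT 1 of 20 was higher and 4 lower in CTNNB1_MET livers, where 11% and 6.22% of all genes were. In CTNNB1_NFE2L2 livers 2 were higher and 6 lower, where 24.5% and 24.2% of all genes were. In NFE2L2_MET livers 1 was higher and 3 lower, where 13.5% and 9.89% of all genes were. Nars, the asparagine enzyme, averaged 228 CPM in triple livers, 135 in CTNNB1_MET, 114 in CTNNB1_NFE2L2, 178 in NFE2L2_MET and 152 CPM in WT livers. Subunits of mitochondrial complex I had 6 of 35 lower than every double (Ndufb9, Ndufb10, Ndufa7, Ndufs3, Ndufb5 and Ndufa5). Compared with the mean of the doubles 26 of 35 were lower, with a median of -0.40. By double model 30 of 35 were lower than in CTNNB1_NFE2L2, 19 than in CTNNB1_MET and 7 than in NFE2L2_MET livers. The median against NFE2L2_MET was -0.219. Over all genes 11.8%, 15.4% and 14.3% were lower in these 3 comparisons. Ndufb10 averaged 65.8 CPM in triple livers, 115 in CTNNB1_MET, 119 in CTNNB1_NFE2L2, 85.9 in NFE2L2_MET and 141 CPM in WT livers. In CTNNB1_NFE2L2 livers 7 complex I genes (7 of 35) were higher than WT and 0 lower, where 24.5% of all genes were higher and 24.2% lower. Complex II had 2 of 4 lower than every double (Sdha and Sdhb), complex III 0 of 9 and the ATP synthase 1 of 15. With total-count scaling the complex I median was -0.17 and 0 met the rule, and without triple replicate 1 the count was 1. The counts of complex II and the ATP synthase were 0 under both.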
